A study of Mus musculus with 16 samples.

Results

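The mitochondrial protein import machinery was followed in microglia sorted from the mouse retina before and after optic nerve crush. Members were all protein-coding genes whose symbol starts with Timm or Tomm and a digit, together with Pmpca, Pmpcb, Grpel1, Hspa9, Dnajc19 and Samm50. This rule, which uses names and no measured value, gave 31 of the 55385 genes measured. The libraries are bulk RNA sequencing of retinal cells from the Iba1-EGFP mouse strain, which carries EGFP under the promoter of Iba1 (Aif1), a gene of microglia and other macrophages, and the labels call the cells microglia. There were 4 libraries per group and 16 in all. The day 0 group had no treatment and an age of 15 weeks. The other groups had an optic nerve crush, an injury to the axons of retinal ganglion cells, and were sampled at day 2 (13 weeks of age), day 4 (13 weeks) and day 7 (16 weeks). Age therefore changes with day in every comparison but that of days 2 and 4, and the age and the day cannot be told apart there. Nothing in the labels ties each library to its own animal, so p-values measure the spread between these libraries, which may be technical. How many cells and animals went into each library is likewise not given.

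Nearly all mitochondrial proteins are encoded in the nucleus, made in the cytosol and carried into the organelle by translocases. The TOM complex is the entry gate of the outer membrane, and the SAM complex inserts beta-barrel proteins there. Small TIM chaperones guide hydrophobic proteins across the space between the membranes, the TIM22 complex inserts carriers into the inner membrane, and the TIM23 complex passes proteins with a presequence. A motor driven by mitochondrial HSP70 pulls these into the matrix, where the processing peptidase MPP removes the presequence. The members comprise 10 TOM genes, 1 SAM gene, 7 small TIM genes, 2 TIM22 genes, 5 TIM23 genes, 4 motor genes and 2 MPP genes. The TOM genes were grouped by symbol, which does not make each of them, such as Tomm34, a subunit of the complex.

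RefSeq promoters on GRCm38.p6, each with 250 bases before and 50 after the start of a transcript, were matched by symbol to 27 of the 31 members, giving 29 promoters. Tomm40l, Tomm7, Hspa9 and Timm21 had no match. They were searched on both strands for 4 motifs of factors known to act on genes for mitochondrial proteins or on growth genes. These motifs were the NRF1 site (GCGC, any base, then TGCGC), the ETS site CCGGAAGT bound by GABPA, the YY1 site AAGATGGC and the E-box CACGTG. They do not overlap in letters, and the E-box reads the same on both strands. The 4 promoters below show at least 1 example of each motif, with the match in capitals, written 5′ to 3′ on the strand of the gene. Timm23, the member with the smallest adjusted p, is at chr14:32201842-32202141 (minus strand) and has the ETS site on the reverse strand (ACTTCCGG). Timm50 is at chr7:28311997-28312296 (minus strand) with the YY1 site. Tomm20 is at chr8:126945872-126946171 (minus strand) with the E-box and the NRF1 site. Timm10 is at chr2:84826771-84827070 (plus strand) with the ETS site and the E-box.
Timm23: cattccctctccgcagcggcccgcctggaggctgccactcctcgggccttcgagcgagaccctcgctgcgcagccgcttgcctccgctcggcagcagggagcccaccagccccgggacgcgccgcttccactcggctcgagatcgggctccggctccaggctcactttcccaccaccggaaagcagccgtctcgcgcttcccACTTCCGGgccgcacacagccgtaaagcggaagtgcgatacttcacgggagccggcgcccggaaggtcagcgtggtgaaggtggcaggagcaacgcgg
Timm50: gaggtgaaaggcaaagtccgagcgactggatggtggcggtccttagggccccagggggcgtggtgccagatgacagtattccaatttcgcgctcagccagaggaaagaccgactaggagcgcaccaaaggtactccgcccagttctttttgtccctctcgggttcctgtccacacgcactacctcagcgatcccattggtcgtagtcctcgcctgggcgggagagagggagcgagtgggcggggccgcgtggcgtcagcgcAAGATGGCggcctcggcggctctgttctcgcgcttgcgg
Tomm20: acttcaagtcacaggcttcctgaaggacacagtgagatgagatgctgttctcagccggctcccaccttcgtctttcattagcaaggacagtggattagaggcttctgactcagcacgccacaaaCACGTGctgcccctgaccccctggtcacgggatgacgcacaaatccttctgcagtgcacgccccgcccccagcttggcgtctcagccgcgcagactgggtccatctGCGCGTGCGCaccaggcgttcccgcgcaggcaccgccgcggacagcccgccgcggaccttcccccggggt
Timm10: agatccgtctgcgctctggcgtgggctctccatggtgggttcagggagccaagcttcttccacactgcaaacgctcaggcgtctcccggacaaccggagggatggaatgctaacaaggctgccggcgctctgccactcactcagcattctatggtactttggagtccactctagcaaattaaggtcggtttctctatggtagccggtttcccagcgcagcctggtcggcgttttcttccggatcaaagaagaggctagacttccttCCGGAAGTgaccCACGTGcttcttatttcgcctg

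The ETS site was found in 7 of the 29 member promoters (24.1%) against 3.89% of all 32851 promoters. Those 7 belong to Pmpcb, Timm10, Timm10b, Timm23, Timm29, Timm8a2 and Tomm70a. The E-box was in 5 member promoters (17.2%, those of Timm10, Timm8a1, Timm9, Tomm20 and Tomm20l) against 7.15% of all. The NRF1 site was in 2 (6.9%, Timm8b and Tomm20) against 4.6% of all, and the YY1 site was in 1 (3.45%, Timm50) against 2.75% of all. A match is a description of the letters in the window and not of binding. Of the 6 tested genes with the ETS site, Timm23 was called higher at day 4 against day 0, where 4.62% of all tested genes were. The other 5 were not called, with changes of 2.87 for Timm10, 0.49 for Timm10b, 0.37 for Tomm70a, -1.19 for Pmpcb and -0.56 for Timm29. Grpel1 was also called higher there, and its promoter had none of the 4 motifs. Tomm7, called higher as well, had no matched promoter. A link between motif and change was not tested.

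Levels are in FPKM, fragments scaled by gene length and library total. For each member that length was all its annotated exon bases, whichever transcript was expressed. Levels of different genes can thus be compared only approximately. The library totals were 8647276 to 15708302 reads, and genes at 1 FPKM or more numbered 9315 (day 7 replicate 4) to 16522 (day 0 replicate 1). Replicates 1 and 2 of every day share the first digits of the code in their titles (batch 1) and replicates 3 and 4 share others (batch 2). The sum over 12 microglial markers was 6315 to 24846 FPKM at day 0, 15984 to 25922 at day 2, 14391 to 20079 at day 4 and 11660 to 21690 at day 7, and Aif1 itself was at 130 to 961 FPKM in every library. Rod photoreceptor markers were present in every library, with sums of 1414 to 9653 FPKM over all days. In bulk samples, a change in the share of a cell type and a change of RNA within its cells cannot be told apart.

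Among the members, 30 reached the filter of 1 FPKM in 4 libraries and were tested. Timm8a2, a paralog of Timm8a1, was not tested: it was listed at 0 in 14 of the 16 libraries, at 0.294 FPKM in day 2 replicate 2 and at 0.0549 in day 4 replicate 2. Each of the 30 reached 1 FPKM in some library of every day, and 14 of them did so in all 16 libraries, against 29.7% of all 14795 genes tested. By the mean over the 16 libraries the order was led by Timm8b (85.8 ± 40.1 FPKM, SD), Tomm22 (80.9 ± 30.3), Tomm7 (68.0 ± 26.4), Timm13 (61.5 ± 32.7), Tomm5 (59.1 ± 38.3) and Hspa9 (42.5 ± 29.5). Neighbours in this order differed by less than their spread. The lowest tested members were Tomm40l (2.92 ± 2.11 FPKM) and Tomm20l (1.85 ± 2.0), both second copies of TOM subunits.

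**Figure D1:**
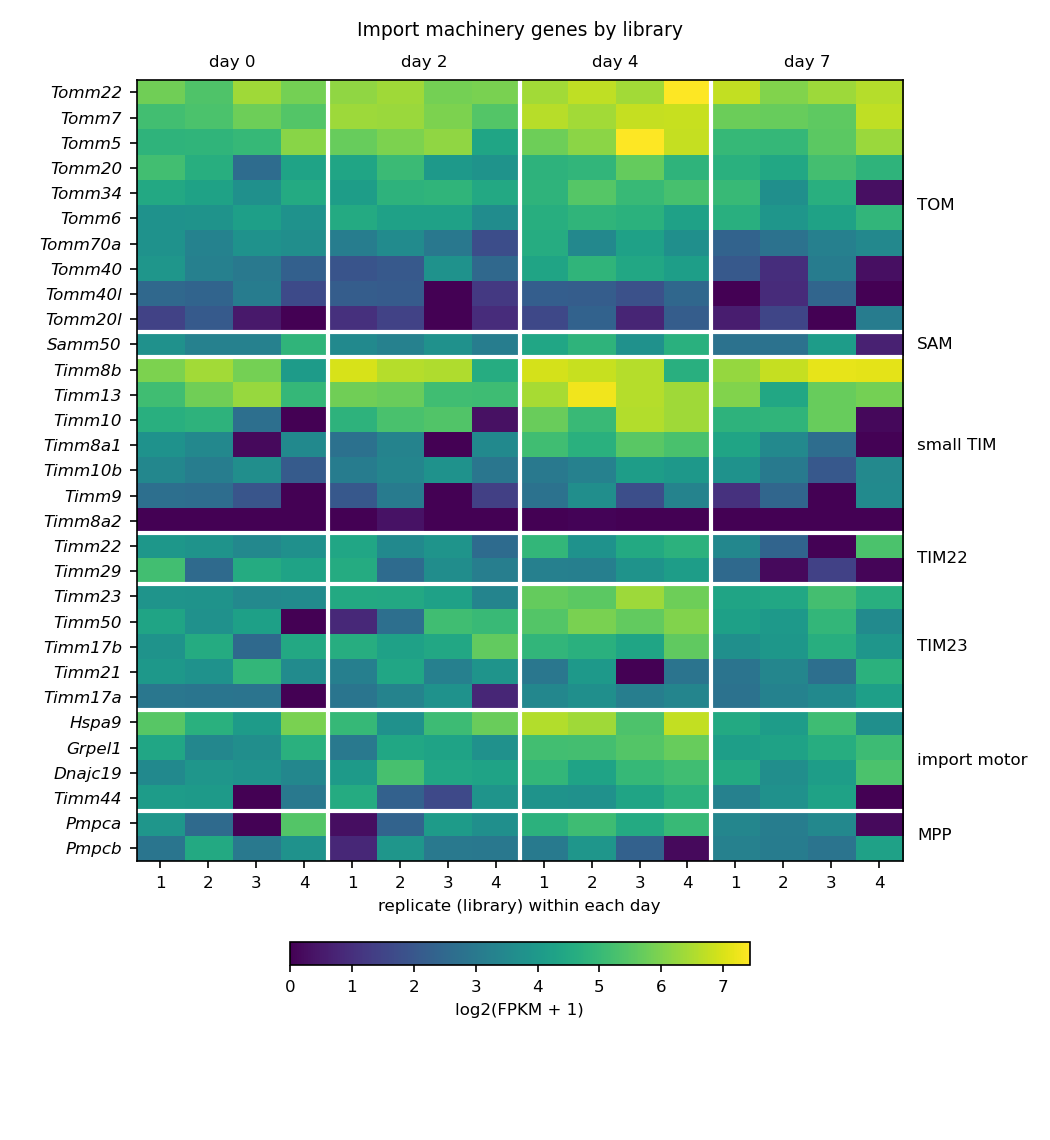
Level of each of the 31 genes (rows, grouped by role) in each of the 16 libraries (columns, replicates 1 to 4 within days 0, 2, 4 and 7), as log2(FPKM + 1) by colour. The day 4 columns are brighter for many rows, and Timm8a2 is dark throughout.

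The machinery was at its highest level at day 4. Summed over the members, expression was 541 to 611 FPKM at day 0, 493 to 722 at day 2, 1074 to 1260 at day 4 and 534 to 806 at day 7. All 4 day 4 libraries lay above all 12 others, and the ranges of the other days overlapped. The median member was at 12.4 ± 1.57 FPKM at day 0, 13.6 ± 2.04 at day 2, 25.6 ± 2.2 at day 4 and 13.2 ± 2.16 at day 7 (mean of the library medians ± SD, n = 4). The median of all tested genes was 3.33 to 6.89 FPKM at day 0, 4.14 to 4.96 at day 2, 3.92 to 5.66 at day 4 and 2.05 to 4.43 at day 7, with no such separation. Genes above 0 in every library did separate day 4, however. The median-of-ratios factors taken from them were 1.17 to 1.28 at day 4 and 0.749 to 1.07 elsewhere. A higher level at day 4 was thus not particular to the members. The members took 0.129 to 0.171% of the reads at day 0 and 0.266 to 0.313% at day 4. Of the 30 tested members, 24 had their highest mean at day 4 (36.4% of all tested genes did), 4 at day 0, 2 at day 7 and none at day 2. The 4 with the highest mean at day 0 were Tomm40l, Pmpcb, Timm29 and Timm21, and the 2 at day 7 were Timm17a and Timm8b.

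**Figure D2:**
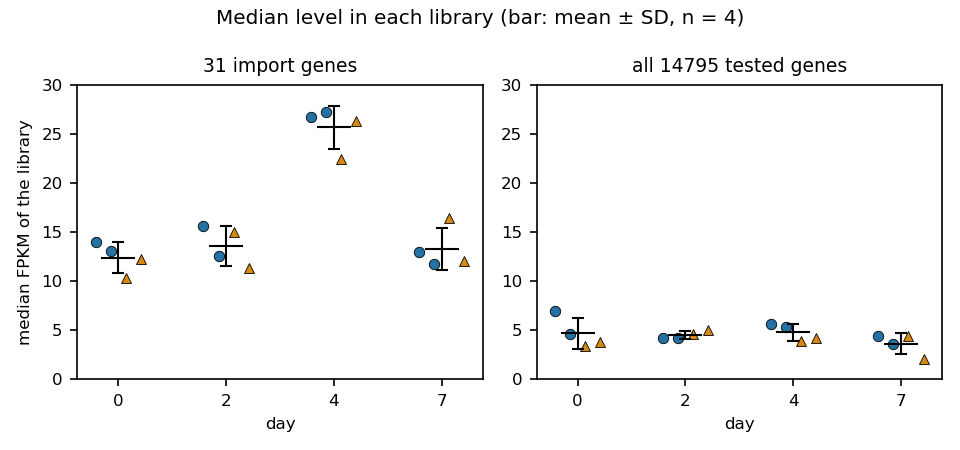
Median FPKM in each library of the 31 import genes (left) and of all 14795 tested genes (right), by day. Circles are batch 1 and triangles batch 2, and the bar is the mean ± SD (n = 4). The 4 day 4 libraries (22.4 to 27.2 FPKM) lie above all others on the left only.

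Changes are differences on the log2(FPKM + 1) scale, tested in limma over all 14795 genes with the batch as a covariate and called at a Benjamini-Hochberg adjusted p under 0.05. Between days 2 and 0 no member was called. The background was 0.25% of all tested genes called higher and 0.0608% called lower. An unadjusted p under 0.05 was found for 1 member, Dnajc19, and for 9.73% of all genes. The median member change was 0.01, against 0.04 for all genes, and 15 of 30 changes were above 0. Only in Dnajc19 did all 4 day 2 libraries lie above all 4 day 0 libraries, where 3.37% of all genes did so.

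Between days 4 and 0, 26 of 30 members had changes above 0 (86.7%, against 56% of all genes). Their median was 1.05, against 0.16 for all genes, and it was 0.73 within batch 1 and 1.19 within batch 2. Called higher were 3 members, Timm23, Tomm7 and Grpel1, where 4.62% of all genes were called higher. None was called lower, where 0.716% were. At an unadjusted p under 0.05 there were 15 members of 30, where 20.9% of all genes were. In 13 members all 4 day 4 libraries lay above all 4 day 0 libraries, where 12.6% of all genes did so. Rescaling the libraries by median-of-ratios factors (1.17 to 1.28 at day 4, 0.749 to 1.07 elsewhere) moved the median of all genes from 0.16 to -0.17. The member median then was 0.62 with 25 changes above 0, and 1 member, Timm23, was called. Over all genes that fit called 270 (1.82%), 153 of them higher, against 790 (5.34%), 684 of them higher, without the rescaling. Days 0 and 4 share their full title code in batch 1 but not in batch 2. With the full code as a covariate the member median was 0.81, against 0.21 for all genes. Timm23 alone of the members was then called, where 2.56% of all genes were.

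Marker RNA of other cells of the retina changed in the same comparison. Among 10 bipolar cell markers, Cabp5 and Pcp2 were called lower at day 4, where 0.716% of all genes were. The median change was -1.73, with sums of 68.6 to 376 FPKM at day 0 and 16.5 to 59.6 at day 4. Among 12 markers of Mueller glia and astrocytes, 1 was called lower, Glul (-2.05 ± 0.40, SE), and the median change was -1.94. Their sums were 2352 to 4482 FPKM at day 0 and 640 to 6561 at day 4, of which Apoe, also a macrophage gene, made up 1850 to 3657 and 487 to 6476. The 12 microglial markers had a median change of -0.10 with none called. Of 6 monocyte markers, only Plac8 reached the filter. It was at 0.0243 to 0.72 FPKM at day 0 and 0.08 to 10.2 at day 4 (1.36 ± 0.58, not called), and at 6.18 to 16.8 at day 7, where it rose by 3.14 ± 0.58 against day 0 (limma adjusted p = 0.031). The monocyte receptor Ccr2 was at 0.18 FPKM or less in every library. Of 5 tested border-associated macrophage markers, Lyve1 was called lower at day 4 (-2.95 ± 0.53). The median of the 5 was 0.30, and Pf4, at 16.1 to 172 FPKM at day 0 and 63.2 to 292 at day 4, had a change of 1.51 ± 0.68 that was not called. With the mean level of the bipolar and Mueller lists as a covariate the member median at day 4 was 1.30, against 0.37 for all genes. That fit called none of the 14795 genes, the members included. At day 2 against day 0 the bipolar and Mueller medians were already -2.10 and -1.36, beside a member median of 0.01. At day 4 against day 2 they were -0.24 and -0.36, beside 0.89. At day 4 against day 0 the medians were -0.52 for rod, -0.06 for cone and -1.88 for endothelial and pericyte markers. Those for amacrine and horizontal and for retinal ganglion markers were -0.46 and -0.62. None of these markers was called. The part of these cells in the day 4 result was not tested further.

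**Figure D3:**
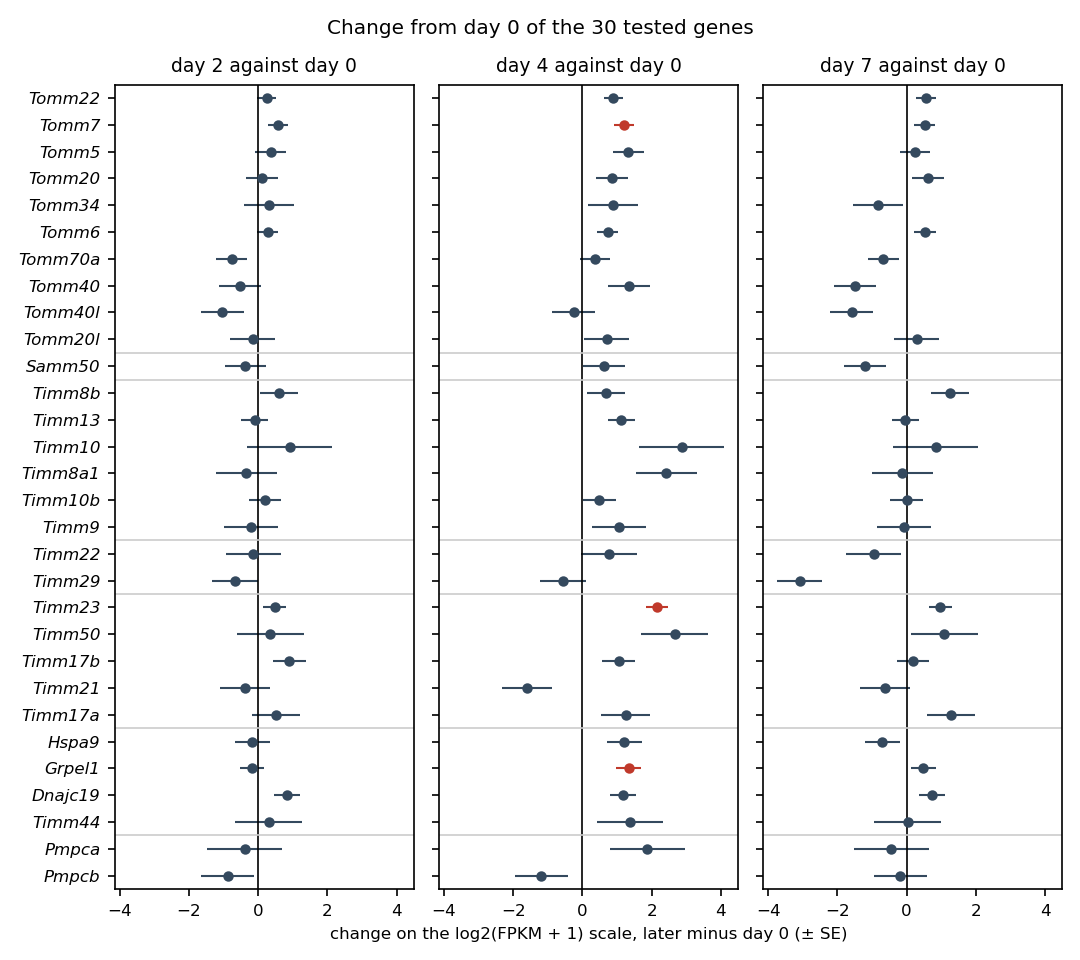
Change from day 0 of the 30 tested genes at days 2, 4 and 7 on the log2(FPKM + 1) scale, with bars of 1 SE, rows grouped by role. Red marks a called gene (3, all at day 4). Of the points in the middle panel, 26 of 30 lie to the right of 0.

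Between days 4 and 2, when the mice had the same age, 28 of 30 changes were above 0 (93.3%, against 58.6% of all genes), with a median of 0.89 against 0.16. The median was 0.44 within batch 1 and 1.01 within batch 2. No day 4 library shares its full title code with a day 2 library, and the labels do not explain the code. With the full code as a covariate the member median was 0.76, against 0.07 for all genes. That fit called none of the 14795 genes. Timm23 alone was called higher, where 0.433% of all genes were, and none was called lower, where 0.0203% were. In 10 members the 4 day 4 libraries lay above all 4 day 2 libraries, where 7.83% of all genes did so. These 10 were Pmpca, Tomm7, Grpel1, Tomm40, Timm50, Timm13, Timm23, Tomm22, Samm50 and Timm8a1. Day 2 replicates 3 and 4 carry the prefix F in their titles and all other libraries M, with no meaning given. Without those 2 libraries the member median was 0.54, against 0.28 for all genes, and none of the 14795 genes was called, the members included.

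Between days 7 and 4, 26 of 30 changes were below 0. The median was -1.10 against -0.25 for all genes, and -0.99 and -0.85 within batches 1 and 2. Tomm40 alone was called lower, where 1.5% of all genes were. None was called higher, where 0.128% were. In 9 members all 4 day 7 libraries lay below all 4 day 4 libraries, where 8.66% of all genes did so. They were Pmpca, Grpel1, Tomm40, Timm50, Timm29, Timm13, Timm23, Hspa9 and Timm8a1. The comparisons that involve day 4 share its 4 libraries.

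Between days 7 and 0 no member was called, where 0.27% of all genes were called higher and 0.135% lower. At an unadjusted p under 0.05 there were 5 members of 30, where 12.1% of all genes were. The median change was 0.01 against -0.07, and 15 of 30 changes were above 0. The day 7 libraries share no full title code with the day 0 libraries. All 4 day 7 libraries lay above day 0 for 1 member, Timm23, where 2.51% of all genes did so, and below day 0 for 1 member, Timm29, where 2.5% did.

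Of the 10 TOM genes, 1 was called higher at day 4 against day 0, where 4.62% of all genes were. The median change of the 10 was 0.87. Tomm7, a small subunit that tunes the stability of the complex, lies on chr5:23838944-23844161. It was at 34.9, 38.9, 54.4 and 42.5 FPKM in replicates 1 to 4 of day 0, and at 80.0, 78.5, 61.4 and 42.0 at day 2. It was at 97.2, 83.7, 108 and 110 FPKM at day 4, and at 53.3, 51.2, 47.3 and 105 at day 7. All day 4 libraries lay above all day 0 and day 2 libraries, and day 7 replicate 4 alone reached the day 4 range. Tomm7 rose by 1.21 ± 0.29 (SE, limma adjusted p = 0.0273) at day 4 against day 0, with 1.27 in batch 1 and 1.16 in batch 2. The call was lost when any of day 0 replicates 1, 2 or 4 or any day 4 library was left out. Over all left-out libraries the changes were 1.14 to 1.33, with limma adjusted p up to 0.0737. The call held in 4 of 12 other alternatives, over which the changes were 0.68 to 1.27.

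Tomm22, a receptor and organiser of the complex and its most abundant member here, was at 55.8, 40.3, 80.9 and 57.5 FPKM at day 0 and at 84.0, 105, 83.6 and 171 at day 4. It was at 72.6, 81.4, 58.0 and 60.2 at day 2 and at 106, 63.5, 79.3 and 95.5 at day 7. The day 4 libraries lay above day 0 without overlap, but the change of 0.89 ± 0.28 did not pass the test (limma adjusted p = 0.0829). Tomm5, another small subunit, was 1.33 ± 0.44 (adjusted p = 0.0914), with 54.6 to 171 FPKM at day 4 and 27.5 to 67.5 at day 0. Tomm6 and Tomm34 also had day 4 libraries above all day 0 libraries (changes of 0.73 and 0.89). For Tomm6, 84.2% of the exon bases are shared with other genes, mostly Gm21981, so its reads cannot be assigned with certainty. The preprotein receptors Tomm20 and Tomm70a had changes of 0.85 and 0.37 at day 4 with overlapping libraries.

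Tomm40, the channel-forming subunit, lies on chr7:19701313-19715438. It was at 14.0, 8.4, 7.0 and 3.88 FPKM at day 0, at 2.83, 3.18, 12.7 and 4.71 at day 2, at 19.2, 28.2, 21.1 and 17.0 at day 4 and at 3.17, 0.947, 7.63 and 0.244 at day 7. Day 4 lay above every library of the other 3 days. Against day 4, Tomm40 fell by 2.85 ± 0.61 at day 7 (limma adjusted p = 0.0316), from 21.4 ± 4.88 to 3.0 ± 3.33 FPKM (SD, n = 4), and its change at day 4 against day 0 was 1.35 ± 0.61 (adjusted p = 0.218). The call was lost without any of the 4 day 4 libraries or without day 7 replicate 2 or 4. Over all left-out libraries the changes were -3.39 to -2.37, with limma adjusted p up to 0.113. The Tomm40 call held in 4 of 12 other alternatives, over which the changes were -3.71 to -2.21. An antisense gene, Gm20512, covers 5.72% of its exon bases and reached 25.0 FPKM, and the libraries do not mark strand. Its second copy Tomm40l was at 4.73, 4.24, 7.67 and 2.2 FPKM at day 0 and at 3.57, 3.41, 0 and 1.33 at day 2. It was at 3.67, 3.58, 2.55 and 4.54 at day 4 and at 0.00663, 0.896, 4.36 and 0.00652 at day 7. The day 4 and day 0 values overlapped, with a change of -0.25 ± 0.62, and 64.3% of its exon bases overlap Nr1i3 on the other strand.

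Tomm20 was at 35.5, 24.3, 5.23 and 18.7 FPKM at day 0, at 19.5, 32.5, 15.0 and 13.0 at day 2, at 26.7, 28.5, 50.3 and 27.7 at day 4 and at 25.5, 21.1, 35.7 and 27.4 at day 7, with overlap between all days. Its second copy Tomm20l was at 7.61 FPKM or less, with 1.74, 3.28, 0.429 and 0 at day 0, 1.04, 1.74, 0 and 0.939 at day 2, 2.08, 4.04, 0.702 and 3.58 at day 4, and 0.501, 1.94, 0 and 7.61 at day 7. Tomm20l and the small TIM gene Timm9 share 49 exon bases on opposite strands and were both listed at 0 in the same 3 libraries (day 0 replicate 4, day 2 replicate 3 and day 7 replicate 3).

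**Figure D4:**
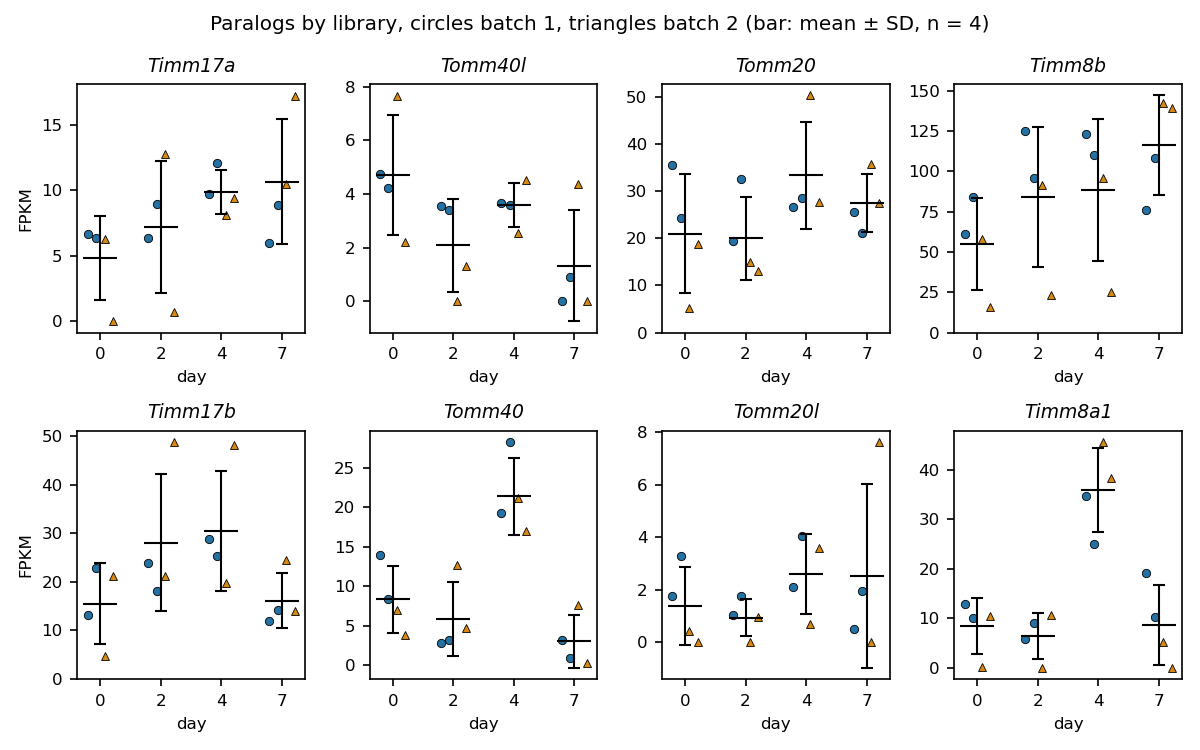
FPKM by day of Timm17a and Timm17b, Tomm40l and Tomm40, Tomm20 and Tomm20l, and Timm8b and Timm8a1, each pair in 1 column. Circles are batch 1, triangles batch 2, and the bar is the mean ± SD (n = 4). Tomm40 and Timm8a1 have their 4 day 4 libraries above all others, while Tomm40l and Timm8b do not.

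Samm50, the core of the SAM complex, was at 12.5, 8.68, 8.6 and 28.3 FPKM at day 0, at 10.4, 8.56, 12.4 and 7.92 at day 2, at 20.2, 27.2, 12.5 and 25.4 at day 4 and at 5.91, 5.91, 16.2 and 0.619 at day 7. Day 4 lay above day 2 by a narrow margin and overlapped day 0. None of its changes passed the test, the largest being -1.83 ± 0.60 at day 7 against day 4 (limma adjusted p = 0.139).

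None of the 6 tested small TIM genes was called in any comparison, where at most 5.34% of all genes were. Their median change at day 4 against day 0 was 1.08. Timm8b, a partner of Timm13 and the most abundant member, was at 61.3, 83.8, 58.2 and 15.7 FPKM at day 0, at 125, 96.1, 91.7 and 23.2 at day 2, at 123, 110, 95.8 and 24.9 at day 4 and at 75.9, 108, 142 and 139 at day 7. Replicate 4 was low on the first 3 days and high at day 7, and the days overlapped. Its relative Timm8a1, the mouse counterpart of the human deafness-dystonia gene, was at 12.8, 10.1, 0.145 and 10.5 FPKM at day 0 and at 5.86, 9.03, 0 and 10.6 at day 2. It was at 34.7, 25.0, 45.5 and 38.2 at day 4 and at 19.1, 10.2, 5.3 and 0.0357 at day 7. Day 4 lay above all other libraries. The change of 2.43 ± 0.89 at day 4 against day 0 did not pass (adjusted p = 0.126), beside a wide spread at day 0. Timm13 was at 34.8 to 76.7 FPKM at day 0 and 82.1 to 153 at day 4 (1.12 ± 0.39), and Timm10 at 0 to 27.0 and 31.9 to 93.1 (2.87 ± 1.23), both without overlap and neither called. Timm9 and Timm10b, which work with Timm10, had changes of 1.05 and 0.49.

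In the TIM22 complex no gene was called in any comparison, where at most 5.34% of all genes were. Timm22, its channel subunit, was at 14.4, 13.0, 10.1 and 12.2 FPKM at day 0, at 20.1, 10.4, 13.5 and 5.1 at day 2, at 29.5, 12.9, 21.9 and 26.3 at day 4 and at 9.75, 4.22, 0.0222 and 38.8 at day 7. Day 7 held both the lowest and the highest library. Timm29, an accessory subunit, had its lowest levels at day 7, with 35.5, 4.95, 22.5 and 19.0 FPKM at day 0 and 4.86, 0.13, 1.72 and 0.064 at day 7. All day 7 libraries lay below all day 0 libraries, day 0 replicate 2 and day 7 replicate 1 by a narrow margin. The change of -3.09 ± 0.66 did not pass (limma adjusted p = 0.0667), and it was -2.52 in batch 1 and -3.67 in batch 2. It passed without day 0 replicate 2 or without day 7 replicate 1.

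In the TIM23 complex, Timm23 was called higher at day 4 against days 0 and 2, and the other 4 genes were not called. Of all genes, 4.62% and 0.433% were called higher in these comparisons. Timm23, the channel subunit on chr14:32180162-32201898, was at 13.3, 13.1, 10.3 and 11.1 FPKM at day 0 and at 21.9, 21.4, 18.1 and 9.25 at day 2. It was at 50.3, 46.2, 79.9 and 54.4 FPKM at day 4 and at 19.3, 20.9, 35.6 and 24.6 at day 7. All day 4 libraries lay above the 12 others, and all day 7 libraries lay above day 0. Timm23 rose by 2.15 ± 0.32 at day 4 against day 0 (limma adjusted p = 0.00338), from 12 ± 1.46 to 57.7 ± 15.2 FPKM (SD, n = 4), with 1.79 in batch 1 and 2.51 in batch 2. It rose by 1.69 ± 0.32 at day 4 against day 2 (adjusted p = 0.0375), and the change at day 7 against day 4 was -1.18 ± 0.32 (adjusted p = 0.0815). The call against day 0 held whichever library was left out (limma adjusted p at most 0.0113). That against day 2 was lost without day 0 replicate 2, any day 2 library or any day 4 library (adjusted p up to 0.131). Of 12 other alternatives, the call against day 0 held in 10 and that against day 2 in 4.

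The reads of Timm23 are shared with near-identical copies. In the GENCODE transcripts, 6 other genes match its transcript at 95% identity or more over at least 100 bases. The closest, the protein-coding gene model Gm10273 on chromosome 10, is 99.9% identical over 1121 of 1173 bases; the other 5 are processed pseudogenes, 4 of them aligned over 626 to 628 bases. Gm10273 was at 25.1, 27.8, 23.6 and 25.2 FPKM at day 0 and at 107, 98.4, 174 and 125 at day 4. Its change was 2.24 ± 0.30 (limma adjusted p = 0.00166). By reads, Timm23 as deposited took 27.0 to 32.7% of the sum of the 7 genes in every library, so which locus the reads came from was not resolved by these values. The summed family, per length of Timm23, was at 42.3, 46.6, 36.8 and 39.6 FPKM at day 0 and at 172, 159, 277 and 197 at day 4. When members were summed with their copies, the change of Timm23 was 2.23 ± 0.30 at day 4 against day 0 (adjusted p = 0.00157), 1.74 ± 0.30 at day 4 against day 2 (adjusted p = 0.0204) and -1.26 ± 0.30 at day 7 against day 4 (adjusted p = 0.0478). Summing thus added the last as a call and lost none.

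Copies of this kind were found for 7 members: 1 each for Dnajc19, Timm17a, Timm8a1 and Tomm5, 2 for Tomm7, 4 for Tomm20 and 6 for Timm23. Tomm7 took 97.4 to 99.1% of the reads it shares with its copies, and its change with them was 1.22 ± 0.29 (limma adjusted p = 0.0269). For Timm8a1 the copy Gm9797 is identical over 612 of 1421 bases and reached 52.4 FPKM. Tomm20 took 62.2 to 79.7% of the reads it shares with its copies. At day 4 against day 0, its copy Gm14494 was called higher (1.30 ± 0.36, limma adjusted p = 0.0495), as was Dnajc19-ps (1.40 ± 0.34, adjusted p = 0.0303). Summed with their copies, Tomm20 (0.98 ± 0.42) and Dnajc19 (1.21 ± 0.36) were still not called. The median member change at day 4 against day 0 was 1.05 with and without the copies.

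**Figure D5:**
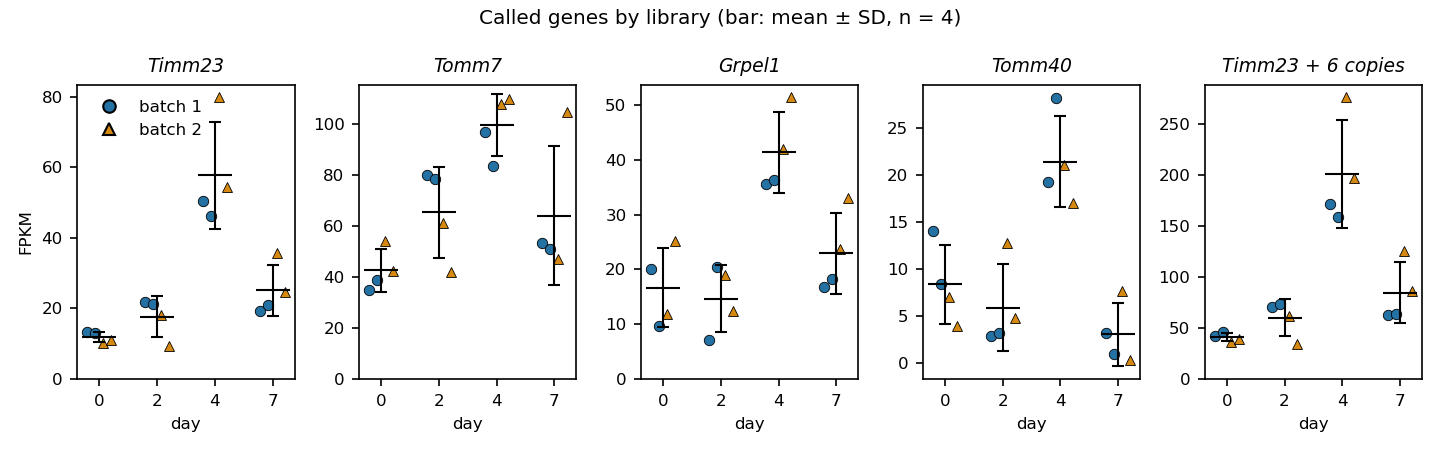
FPKM by day of the 4 genes called in any comparison, Timm23, Tomm7, Grpel1 and Tomm40, and of Timm23 summed with its 6 near-identical copies (per length of Timm23). Circles are batch 1, triangles batch 2, and the bar is the mean ± SD (n = 4). For Timm23, Grpel1 and Tomm40 the 4 day 4 libraries lie above the 12 others, and Tomm7 has 1 day 7 library, replicate 4, within the day 4 range.

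Timm50, the receptor of the TIM23 complex, was at 42.6 to 63.3 FPKM at day 4 and 0.0135 to 19.3 at day 0, without overlap, and its change of 2.67 ± 0.97 did not pass (limma adjusted p = 0.123). The paralogs Timm17a and Timm17b, alternative subunits that pair with Timm23, were not called. Timm17a was at 6.7, 6.38, 6.29 and 0.00921 FPKM at day 0, at 6.35, 8.92, 12.8 and 0.753 at day 2, at 9.75, 12.1, 8.12 and 9.42 at day 4 and at 5.98, 8.87, 10.5 and 17.2 at day 7. Day 4 lay above day 0 and overlapped day 7, and the change at day 4 was 1.25 ± 0.70. Timm17b, on the X chromosome, was higher on average than Timm17a on every day, with levels scaled to 2557 exon bases against 7893. It was at 13.2, 22.9, 4.82 and 21.2 FPKM at day 0, at 23.9, 18.2, 21.1 and 48.8 at day 2, at 28.7, 25.2, 19.8 and 48.1 at day 4 and at 11.9, 14.2, 24.4 and 13.9 at day 7, with a change of 1.05 ± 0.47 at day 4. Timm21, a subunit that couples the complex to TOM and to the respiratory chain, had the lowest change of all members at day 4 (-1.61 ± 0.72, adjusted p = 0.215), with 11.1 to 29.0 FPKM at day 0 and 0 to 14.8 at day 4.

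All 4 import motor genes had changes above 1 at day 4 against day 0, from 1.17 to 1.38. Of these, 1 was called higher, where 4.62% of all genes were. Grpel1, the nucleotide exchange factor of mitochondrial HSP70, lies on chr5:36464998-36474080. It was at 20.0, 9.73, 11.8 and 25.2 FPKM at day 0, at 7.05, 20.4, 18.9 and 12.4 at day 2, at 35.5, 36.3, 42.0 and 51.5 at day 4 and at 16.8, 18.3, 23.7 and 33.1 at day 7. Day 4 lay above all other libraries. Grpel1 rose by 1.34 ± 0.36 (limma adjusted p = 0.0437), with 1.30 in batch 1 and 1.38 in batch 2. The change at day 4 against day 2 was 1.52 ± 0.36 (adjusted p = 0.0823). The call was the least stable of the 3 at day 4. It was lost without any day 4 library and without day 0 replicate 2 or 3. Leaving out day 2 replicate 3 or day 7 replicate 1, 2 or 3 also lost it. Over all left-out libraries the changes were 1.13 to 1.53, with limma adjusted p up to 0.114. The call held in 2 of 12 other alternatives, over which the changes were 0.88 to 1.79.

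Hspa9, the mitochondrial HSP70 itself, was at 44.0, 25.5, 16.0 and 59.5 FPKM at day 0, at 30.3, 12.5, 33.4 and 51.7 at day 2, at 94.7, 81.4, 40.0 and 107 at day 4 and at 21.7, 16.3, 33.8 and 12 at day 7. Every day 7 library lay below every day 4 library, with a change of -1.91 ± 0.50 that did not pass (limma adjusted p = 0.0685). Dnajc19, a J-domain protein of the motor, was at 9.73 to 14.0 FPKM at day 0, 15.6 to 37.7 at day 2, 18.8 to 34.4 at day 4 and 11.7 to 39.2 at day 7. Its change at day 4 against day 0 was 1.17 ± 0.38 (adjusted p = 0.0871). Timm44, the tether of the motor, was at 0 to 16.1 FPKM at day 0 and 12.6 to 26.1 at day 4 (1.38 ± 0.96).

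The MPP subunits had changes of opposite sign at day 4. Pmpca, the alpha subunit, was at 13.9, 4.96, 0.0271 and 42.5 FPKM at day 0, at 0.203, 4.16, 15.7 and 12 at day 2, at 26.4, 33.6, 22.4 and 31.4 at day 4 and at 9.55, 7.81, 10.1 and 0.142 at day 7. Day 4 lay above days 2 and 7 but within the wide range of day 0, and the change at day 4 against day 0 was 1.88 ± 1.08. Inpp5e covers 20.4% of its exon bases on the other strand. Pmpcb, the catalytic beta subunit, was at 6.43 to 22.0 FPKM at day 0 and 0.136 to 13.9 at day 4 (-1.19 ± 0.77). Neither was called, and the difference between the 2 subunits was not tested.

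Genes that work beside the import machinery were taken from 3 lists. Of 25 tested other import and folding genes, 3 were called higher at day 4 against day 0 with a median of 0.94, beside 4.62% of all genes. Hspe1, the co-chaperonin of the matrix, was at 31.1, 57.2, 51.1 and 55.1 FPKM at day 0 and 112, 169, 192 and 135 at day 4, and rose by 1.63 ± 0.35 (limma adjusted p = 0.0147). Romo1, a small inner-membrane protein, was at 62.8, 45.5, 55.4 and 38.2 FPKM at day 0 and 90.5, 139, 158 and 107 at day 4, and rose by 1.27 ± 0.29 (adjusted p = 0.0229). Mtch2, an outer-membrane insertase, was at 11.4, 4.67, 3.4 and 5.57 FPKM at day 0 and 19.4, 16.8, 23.6 and 30.7 at day 4, and rose by 1.78 ± 0.42 (adjusted p = 0.0247). In all 3, the day 4 libraries lay above every day 0 library. Left-out libraries ended the calls of Hspe1 (day 4 replicate 2), Romo1 (day 0 replicate 2 or 4, day 4 replicate 2 or 3) and Mtch2 (day 0 replicate 2, 3 or 4 or any day 4 library). All 3 calls were also lost with median-of-ratios factors, no filter on low values, the full title code, either batch alone or the bipolar and Mueller covariate, and that of Romo1 with voom on recovered reads. Over these and the other alternatives the changes were 0.99 to 1.68 for Hspe1, 0.80 to 1.48 for Romo1 and 1.18 to 2.87 for Mtch2.

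Against day 2, Hspe1 alone of the 25 was called higher at day 4 (1.89 ± 0.35, limma adjusted p = 0.0294). The share of all genes called higher was 0.433%, and the list median was 0.73. That call was lost without day 2 replicate 2, 3 or 4 or day 4 replicate 2, 3 or 4 (adjusted p up to 0.112) and in 7 of 12 other alternatives. At day 7 against day 4, Hspd1, the matrix chaperonin that works with Hspe1, fell by 3.21 ± 0.54 (adjusted p = 0.0092), from 93.5, 113, 150 and 204 FPKM to 26.6, 20.9, 3.5 and 16.0, and the list median was -0.74. No other gene of the list was called, where 1.5% of all genes were called lower. The Hspd1 call held whichever library was left out and was lost in 3 of the 12 (either batch alone and the cell covariate). The list had no call at days 2 and 7 against day 0, where 0.311% and 0.406% of all genes were called. Its medians there were 0.18 and 0.03.

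Among 9 carriers of the inner membrane, which enter through TIM22, 1 was called, higher at day 4 against day 0. The share of all genes called higher there was 4.62%. The only call was Slc25a5, an ADP/ATP carrier. It was at 301, 419, 304 and 532 FPKM at day 0 and at 874, 877, 922 and 1286 at day 4, and rose by 1.37 ± 0.22 (limma adjusted p = 0.00386). The call held whichever library was left out and was lost in 4 of the 12 other alternatives: median-of-ratios factors (0.89), either batch alone and the bipolar and Mueller covariate, with adjusted p up to 0.195. The median of the 9 was 1.03 at day 4 against day 0. None of 10 regulators of mitochondrial biogenesis, such as Ppargc1a, Nrf1, Gabpa, Tfam and Yy1, was called in any comparison. At most 5.34% of all genes were called in a comparison. The median of the 10 regulators at day 4 against day 0 was 0.21. Near-identical copies were also found for Hspe1 and Romo1 (1 each), Mtch2 (1), Hspd1 (3) and Slc25a5 (3), and how their reads were divided was not resolved.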

How the data were processed

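The deposited table gives FPKM per gene for 16 libraries, which the authors made with STAR 2.7.2b and featureCounts 1.6.1 and the builds GRCm38.p6 and mm10, as named in the submitters' processing notes. Libraries were made from amplified cDNA with a tagmentation kit that does not mark strand, per the labels' protocols. The treatment of reads with several genomic positions is not stated in the labels or the table. FPKM times gene length summed to the same total in every library, and the values lay on steps of 0.01 read (tolerance 0.02 steps), which gave the library totals. Between 47.4% and 63.8% of values above 0 were whole reads (tolerance 0.02 reads), so the underlying counts were partly fractional.

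A limma 3.58.1 fit (R 4.3.3, empirical Bayes with a mean-variance trend) was made on log2(FPKM + 1) for the 14795 genes that reached 1 FPKM in 4 or more libraries. It used all 16 libraries, a mean per day and the title-code batch as covariate, with two-sided p-values adjusted over all 14795 genes by Benjamini-Hochberg at 0.05. This scale understates changes of low genes. Amplified reads are not independent molecules, and an exact 0 is described only as listed at 0. The script was tested on simulated data. The members, the lists and the comparisons were chosen with earlier results of these data known. Values of every library are given for called members, the most abundant member of each role and the paralogs. Of the other lists, called genes are named, at most 4 per list and comparison. Near-identical copies were found with blastn (at least 95% identity over 100 bases for processed pseudogenes, or 150 bases for other transcripts) in GENCODE M21 transcripts of GRCm38, after the data were seen.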

Additional observations from a re-analysis of the deposited data

Results flagged for a closer look

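In 7 of 122 groups of 4 libraries (1 gene on 1 day), a single library stood apart from the other 3 by Dixon's 95% criterion. For normally distributed values, chance gives about 1 in 20 such groups. At day 0, Timm17a was at 0.00921 FPKM in replicate 4 (others 6.29 to 6.7), Tomm5 at 67.5 in replicate 4 (others 27.5 to 30.6) and Tomm6 at 17.2 in replicate 3 (others 12.9 to 13.0). At day 2, Timm8a2 was at 0.294 FPKM in replicate 2 and listed at 0 in the others, and at day 4 it was at 0.0549 in replicate 2 alone. With the others at 0, any value in the remaining library meets the criterion, so these flags were fixed in advance. They rest on 3.0 and 0.5 reads. Tomm20 was at 50.3 FPKM in day 4 replicate 3 (others 26.7 to 28.5). Tomm7 was at 105 FPKM in day 7 replicate 4 (others 47.3 to 53.3).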

How the results depend on the processing

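No called member changed direction under any alternative. Of the 30 tested members, called or not, 5 changed sign in some of 12 alternatives at day 4 against day 0. Such members numbered 10 at day 4 against day 2 and 9 at day 7 against day 4. Against day 0 they numbered 20 at day 2 and 13 at day 7. At day 4 against day 0, 1 member was called in place of 3 with no filter on low values, median-of-ratios factors, the full title code or batch 1 alone, and 0 with batch 2 alone or the bipolar and Mueller covariate. Of all genes, 5.34% were called in the reported fit, 0.624%, 1.82%, 2.56% and 2.05% in the 4 alternatives with 1 member, and none in the last 2. The median change there was 0.62 with median-of-ratios factors, 0.81 with the title code, 0.73 in batch 1, 1.30 with the cell covariate and 1.21 with voom on recovered reads. At day 2 against day 0 the median was 0.25 with the cell covariate. At day 7 against day 0 it was 0.38 in batch 2 and 0.32 with the cell covariate, and 1 member (Timm29) was called with median-of-ratios factors. At day 4 against day 2 the call was lost (0 members) with no filter, median-of-ratios factors, the title code, either batch alone, the cell covariate or without the libraries of prefix F. These alternatives called 2, 23, 0, 1 (batch 1), 0 (batch 2), 60 and 0 of all genes, against 67 in the reported fit. The median was 0.65, 0.44 and 0.54 with median-of-ratios factors, in batch 1 and without prefix F. At day 7 against day 4, 0 members were called with a pseudocount of 0.1, no filter, median-of-ratios factors, the title code, either batch, the cell covariate or voom (194, 63, 73, 104, 0 in either batch, 23 and 147 of all genes, against 241), and 2 when members were summed with their copies, an alternative chosen after seeing the data. The median there was -0.67 with median-of-ratios factors and -0.85 in batch 2. The cause was not tested in these cases, except that single batches hold fewer libraries.

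Leaving out each library in turn gave 0 calls at day 2, 1 to 4 at day 4 and 0 to 1 at day 7 against day 0, 0 to 1 at day 4 against day 2 and 0 to 2 at day 7 against day 4. The day 4 count against day 0 was 1 without day 0 replicate 2 or without any of the day 4 libraries. The medians ranged from -0.02 to 0.12, 0.84 to 1.14, 0.00 to 0.24, 0.68 to 1.04 and -1.24 to -0.90 in the same order.

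Same-numbered libraries of different days deviated together only weakly (24 pairs, r of -0.06 to 0.23, median 0.04, 4 over 0.1). Other pairs of the same batch had the same median (24 pairs, 3 over 0.1). Pairs of different batches had a median of -0.03, with 0 of 48 over 0.1. Such weak correlations cannot show whether the numbers pair the libraries. With the replicate block, 1 member was called at day 4 against day 0, 1 at day 7 against day 0 (Timm29), 0 at day 4 against day 2 and 2 at day 7 against day 4 (Tomm40 and Timm29). The block called 566, 22, 31 and 152 of all genes in the same order.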
